A study of Mus musculus with 6 samples.

Results

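The 10 marker genes of eosinophils, basophils and mast cells, Prg2, Prg3, Epx, Mcpt8, Cpa3, Ms4a2, Fcer1a, Gata2, Kit and Cma1, were read in 2 sorted cell populations of the mouse skull suture. They are 10 of 19938 genes that could be tested, and each was named by its marker role and read from the array feature that carries only its symbol. All 10 had 1 such feature. The samples were 3 of Axin2+/GFP+ cells and 3 of Axin2-/GFP- cells, 1 array each, from the suture mesenchyme at postnatal day 28. Every mouse, in both groups, carried the Axin2rtTA and TRE-H2BGFP transgenes on a mixed background of C57BL/6J, CD-1 and B6CBAF2 and received doxycycline from postnatal day 25 onwards. The Axin2rtTA transgene places a doxycycline-dependent activator under Axin2 control, and the activator switches on a histone-GFP fusion, so GFP marks cells that express Axin2 or whose recent parents did. Tissue of 6 to 8 mice was pooled for each sample, digested with 0.2% collagenase and sorted on GFP intensity, and no antibody against blood cells is named for this sort. The study describes the Axin2+ sort as cells with high GFP and the Axin2- sort as cells negative for GFP. The comparison asks how these 2 sorts differ, and suture cells with intermediate GFP may be in neither.

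Eosinophils, basophils and mast cells are the granule-bearing cells of allergic and antiparasitic responses. Eosinophils and basophils mature in bone marrow and circulate, whereas mast cells mature in tissues under Kit ligand. Each stores its own set of cationic proteins and proteases in granules: major basic proteins and a peroxidase in eosinophils, the protease Mcpt8 in mouse basophils, and chymases, tryptases and carboxypeptidase A3 in mast cells. Basophils and mast cells carry the high-affinity IgE receptor, and the transcription factor Gata2 is used in these lineages as well as in blood progenitors and endothelium.

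Of the 10 genes, 4 were called higher in Axin2+/GFP+ cells (Prg2, Epx, Mcpt8 and Gata2), 0 were called lower and 6 were not called, by limma with an adjusted p under 0.05. Without adjustment, a p under 0.05 was reached by the same 4 genes, higher, and by Kit, lower. Over all genes tested, 4.64% were called higher and 11.4% lower (926 and 2265 genes), and the split moved with scaling, to 459 higher and 2719 lower after centring each sample on its median and to 210 and 3980 after centring on the olfactory and vomeronasal receptor genes. The 3 samples of each population did not overlap for 5 of the 10 genes, 4 of them higher and Kit lower in Axin2+/GFP+ cells, against 23.1% of all genes separated with Axin2+/GFP+ higher and 17.8% with it lower. The median log2 change of the 10 genes was 0.52, beside 0.14 over all genes. Values are the deposited log2 array signals, a change is Axin2+/GFP+ minus Axin2-/GFP-, and a p-value covers only the spread among these 6 samples. Since each sample is a mixture, fewer cells of a type and less RNA per cell cannot be told apart.

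**Figure D1:**
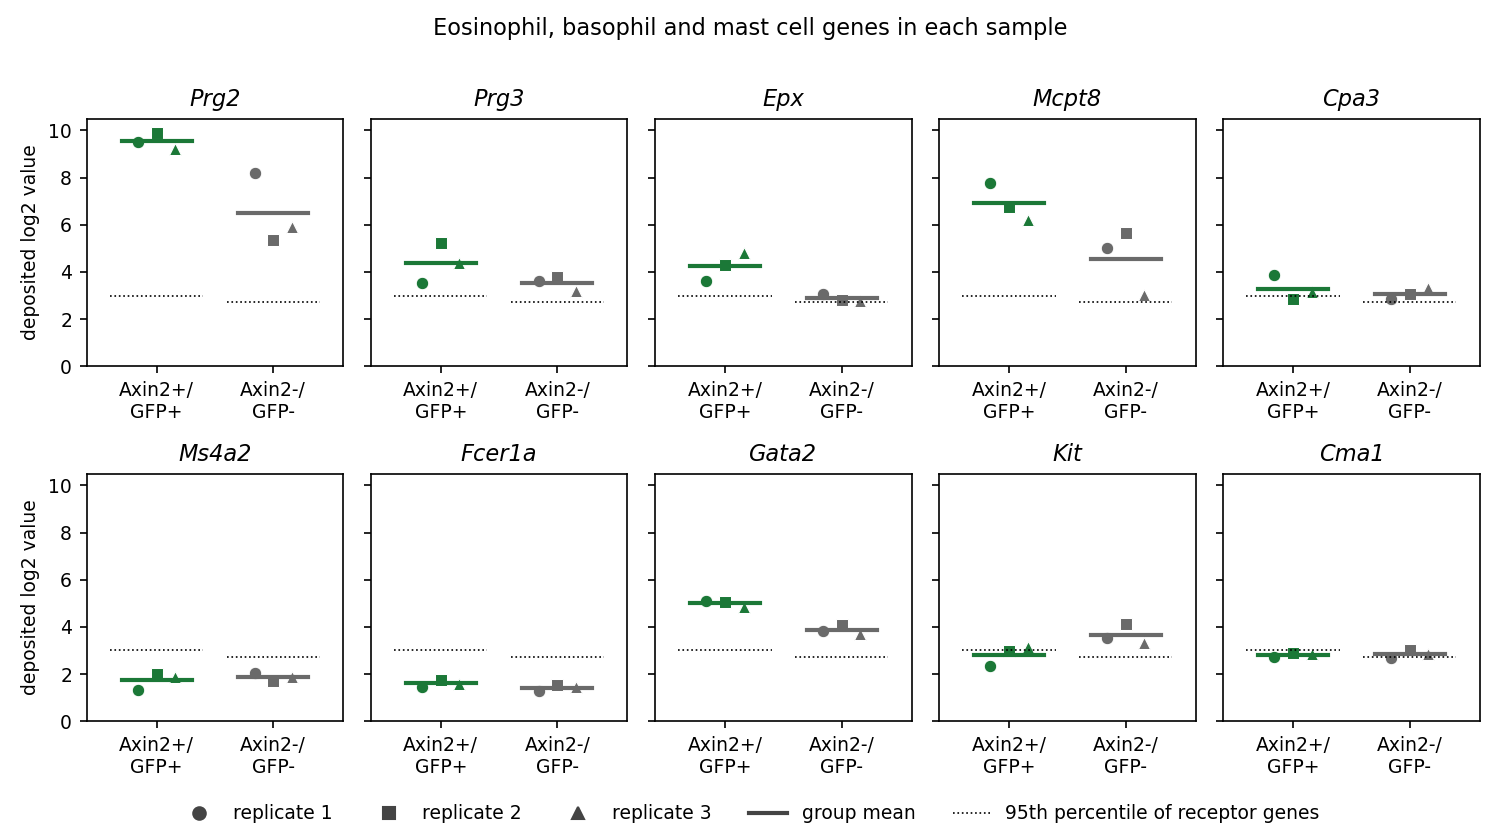
Deposited log2 value (vertical axis) of each of the 10 genes in the 3 Axin2+/GFP+ samples (green) and the 3 Axin2-/GFP- samples (grey), with a bar for the group mean and a dotted line for the 95th percentile of olfactory and vomeronasal receptor genes. Prg2, Epx, Mcpt8 and Gata2 lie higher in all Axin2+/GFP+ samples, whereas Ms4a2 and Fcer1a lie below the dotted line in all 6 samples.

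Array signal depends on the probes as well as on the RNA, so 1190 olfactory and vomeronasal receptor genes, which bone and blood cells are not known to use, gave a guide to background. Their median was 1.80 in Axin2+/GFP+ and 1.46 in Axin2-/GFP- samples, and their 95th percentile was 3.001 in Axin2+/GFP+ and 2.734 in Axin2-/GFP- samples. Their median log2 change was 0.30 (quartiles 0.15 and 0.48), so dim genes were shifted upwards in Axin2+/GFP+ samples, while the 1719 genes whose mean reached 5 changed by a median of -0.57. Axin2 itself had values of 2.89, 2.54 and 3.07 in Axin2+/GFP+ samples and 2.18, 2.27 and 2.38 in Axin2-/GFP- samples, a change of 0.55 (SE 0.19, adjusted p = 0.0802). The methods' t-test gave it an unadjusted p of 0.0290, which became 0.135 after Benjamini-Hochberg adjustment. Limma called it higher without Axin2+/GFP+ replicate 2 (adjusted p = 0.0452). In limma its change was 0.45 after median centring (adjusted p = 0.156) and 0.43 after quantile normalization (adjusted p = 0.225). It was 0.35 after cyclic loess (adjusted p = 0.305) and 0.24 after centring on receptor genes (adjusted p = 0.496). All Axin2 values except that of Axin2+/GFP+ replicate 3 lay under the receptor genes' 95th percentile of their population. Of 8 mesenchymal markers 3 were higher in Axin2+/GFP+ samples, among them Col1a1, and all 8 B-lineage markers measured were lower, among them Ebf1.

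The sequences just upstream of the start sites of 2 genes that were called higher (Epx and Mcpt8) and 2 that were not (Cpa3 and Ms4a2) are shown because the 4 encode granule and receptor proteins of these cells and differ in the letters they hold. Each is the RefSeq window of 250 bases before to 50 bases after the start site in build GRCm38.p6, written 5′ to 3′ along the gene, with capitals for a GATA motif (AGATAA or TGATAA, either strand), a C/EBP motif (TTGCNNAA, either strand) or a TATA box (TATAAA, along the gene).
Epx, chr11:87875487-87875786, minus strand: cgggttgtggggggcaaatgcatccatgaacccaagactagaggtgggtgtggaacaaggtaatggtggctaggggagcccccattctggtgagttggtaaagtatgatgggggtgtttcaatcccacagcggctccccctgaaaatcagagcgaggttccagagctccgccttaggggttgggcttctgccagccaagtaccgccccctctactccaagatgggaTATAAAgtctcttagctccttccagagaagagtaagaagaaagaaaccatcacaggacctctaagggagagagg
Mcpt8, chr14:56085148-56085447, minus strand: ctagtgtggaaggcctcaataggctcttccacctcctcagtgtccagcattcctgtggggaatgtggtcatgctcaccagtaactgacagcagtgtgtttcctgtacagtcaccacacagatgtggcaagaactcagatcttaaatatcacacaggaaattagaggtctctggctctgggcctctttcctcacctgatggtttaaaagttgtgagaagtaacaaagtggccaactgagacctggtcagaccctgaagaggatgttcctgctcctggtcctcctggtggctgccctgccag
Cpa3, chr3:20242132-20242431, minus strand: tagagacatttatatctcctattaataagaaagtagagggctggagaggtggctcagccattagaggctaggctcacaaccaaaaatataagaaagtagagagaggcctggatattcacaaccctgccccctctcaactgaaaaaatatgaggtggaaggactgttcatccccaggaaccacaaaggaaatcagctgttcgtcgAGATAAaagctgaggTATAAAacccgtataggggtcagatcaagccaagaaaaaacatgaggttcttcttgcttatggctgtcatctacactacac
Ms4a2, chr19:11623670-11623969, minus strand: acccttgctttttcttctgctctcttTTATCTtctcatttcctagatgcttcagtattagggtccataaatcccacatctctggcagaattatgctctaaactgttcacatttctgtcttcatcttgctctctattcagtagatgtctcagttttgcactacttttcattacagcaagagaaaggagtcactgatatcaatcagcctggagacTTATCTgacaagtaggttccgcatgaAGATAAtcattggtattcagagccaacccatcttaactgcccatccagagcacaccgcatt
The Epx window held a TATA box with its first letter at position -24 and the Mcpt8 window held none of the 3 motifs. The Cpa3 window held a GATA motif at -46 and a TATA box at -31, and the Ms4a2 window held 3 GATA motifs, at -224, -37 and -11. The table lists 11 windows for 9 of the 10 genes, all but Prg2. The GATA motif (AGATAA or TGATAA) occurred in the windows of Prg3, Cpa3, Ms4a2 and Fcer1a, beside 18.6% of the 32851 mouse promoters listed. It occurred in none of the windows of Epx, Mcpt8, Gata2, Kit and Cma1. The TATA box (TATAAA) occurred in Epx, Cpa3 and Fcer1a (8.3% of all promoters) and the C/EBP motif only in Fcer1a (10.8%). These matches describe letters in a window and say nothing of binding.

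The eosinophil granule genes were higher in Axin2+/GFP+ cells for 2 of 3 members. Prg2 encodes major basic protein, the core of the eosinophil granule. Its log2 values were 9.53, 9.88 and 9.22 in Axin2+/GFP+ samples, against 8.21, 5.35 and 5.89 in Axin2-/GFP- samples. The Axin2+/GFP+ samples lay close together and above all Axin2-/GFP- samples, of which replicate 1 stood far above the other two. The mean was 9.54 ± 0.33 in Axin2+/GFP+ and 6.49 ± 1.52 in Axin2-/GFP- samples (SD, n = 3 each), a log2 change of 3.06 (SE 0.63, 95% interval 1.63 to 4.49, adjusted p = 0.0136) or 8.33-fold. Without Axin2-/GFP- replicate 3 the change was 2.76 and the adjusted p 0.0533. Without Axin2-/GFP- replicate 1 it was 3.92, with an adjusted p of 0.000712.

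Epx encodes eosinophil peroxidase, which makes hypohalous acids from hydrogen peroxide. Its values were 3.63, 4.31 and 4.80 in Axin2+/GFP+ samples and 3.05, 2.82 and 2.76 in Axin2-/GFP- samples, with no overlap. The change was 1.37 (SE 0.28, 95% interval 0.72 to 2.01, adjusted p = 0.0141), a 2.58-fold difference. Epx was near the background range in Axin2-/GFP- samples, and the share of receptor genes as bright was 0.420% in Axin2+/GFP+ samples and 3.19% in Axin2-/GFP- samples. The adjusted p was 0.0540 without Axin2-/GFP- replicate 2 and 0.0545 without Axin2-/GFP- replicate 3.

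Prg3 encodes a homologue of major basic protein and lies next to Prg2, with 0 protein-coding genes between them in the RefSeq table. Its values were 3.54, 5.21 and 4.39 in Axin2+/GFP+ samples and 3.61, 3.79 and 3.21 in Axin2-/GFP- samples. Replicate 1 of the Axin2+/GFP+ samples lay within the Axin2-/GFP- range. The change of 0.84 (SE 0.38, 95% interval -0.02 to 1.71, adjusted p = 0.155) was not called, and without that replicate it was 1.26 with an adjusted p of 0.0290. Prg2 and Prg3 thus had different calls, and the difference between their changes was not tested.

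**Figure D2:**
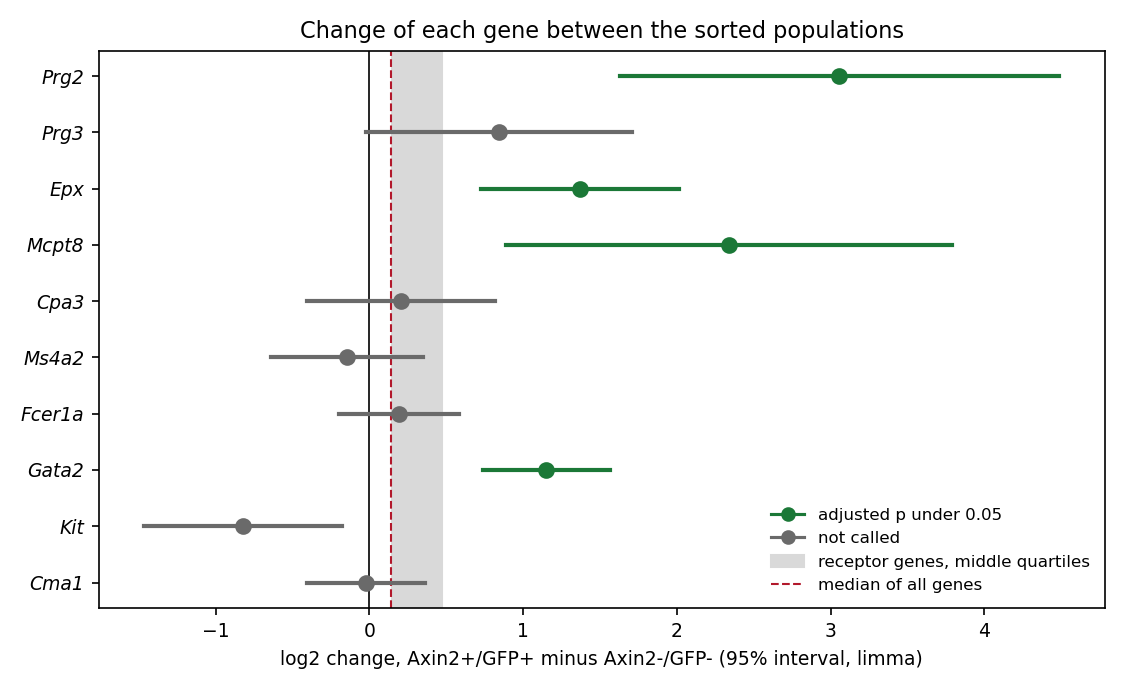
Log2 change of each of the 10 genes (horizontal axis, Axin2+/GFP+ minus Axin2-/GFP-) with its 95% interval from limma, green where the adjusted p was under 0.05. The grey band spans the middle quartiles of the receptor genes, and the intervals of Prg2, Epx, Mcpt8 and Gata2 lie to its right.

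Of 7 other eosinophil genes listed, 5 were measured and 3 were higher in Axin2+/GFP+ cells, with 0 lower and a list median of 0.64. Alox15, the 12/15-lipoxygenase that eosinophils and some macrophages use to oxidize arachidonic acid, had values of 5.73, 7.10 and 7.17 in Axin2+/GFP+ samples and 4.34, 3.84 and 3.09 in Axin2-/GFP- samples. Its change was 2.91 (SE 0.43, adjusted p = 0.00334). Ear6, an eosinophil-associated ribonuclease, had 4.26, 4.54 and 6.99 in Axin2+/GFP+ samples and 3.41, 2.60 and 2.99 in Axin2-/GFP- samples, a change of 2.26 (SE 0.63, adjusted p = 0.0428). For both genes the populations did not overlap, and Ear6 was set apart in Axin2+/GFP+ replicate 3, without which its change was 1.40 (adjusted p = 0.0143).

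Of 3 surface receptors of eosinophils on that list, 1 was called. Ccr3, the eotaxin receptor, was higher (change 0.64, adjusted p = 0.0465), while 22.9% of receptor genes were as bright in Axin2+/GFP+ samples and 37.3% in Axin2-/GFP- samples, and centred on those genes its change was 0.33 (adjusted p = 0.277). Siglecf, the sialic acid-binding lectin used to sort mouse eosinophils, had 2.69, 2.97 and 3.07 in Axin2+/GFP+ samples and 3.10, 3.29 and 2.89 in Axin2-/GFP- samples, and the populations overlapped (change -0.19, adjusted p = 0.491). Il5ra, the interleukin-5 receptor chain, also overlapped (change 0.12, adjusted p = 0.787). The number of the 5 genes called was 1, Alox15, without any 1 of the 3 Axin2-/GFP- replicates, 2 without Axin2+/GFP+ replicate 1 or 3, and 3 without Axin2+/GFP+ replicate 2.

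Mcpt8, the serine protease that marks mouse basophils, was the member with the next largest change after Prg2. Its values were 7.77, 6.75 and 6.19 in Axin2+/GFP+ samples and 5.003, 5.659 and 3.036 in Axin2-/GFP- samples. The lowest Axin2+/GFP+ sample lay 0.53 above the highest Axin2-/GFP- sample, and both populations varied widely (SD 0.80 in Axin2+/GFP+ and 1.37 in Axin2-/GFP- samples, n = 3 each). The change was 2.34 (SE 0.64, 95% interval 0.89 to 3.79, adjusted p = 0.0405), a 5.06-fold difference. This call depended on single samples: the adjusted p was 0.0999 without Axin2+/GFP+ replicate 1, 0.0749 without Axin2+/GFP+ replicate 2, 0.0825 without Axin2-/GFP- replicate 1 and 0.0715 without Axin2-/GFP- replicate 3.

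Of 6 other basophil genes, 1 was called higher and 0 lower, with a list median of 0.90, and 4 had an unadjusted p under 0.05, all of them higher. Prss34, a basophil serine protease, had values of 8.62, 7.51 and 6.73 in Axin2+/GFP+ samples and 6.18, 5.37 and 4.07 in Axin2-/GFP- samples, with no overlap (change 2.42, SE 0.58, adjusted p = 0.0252). Hdc, which makes histamine from histidine, had 7.75, 7.32 and 5.99 in Axin2+/GFP+ samples and 6.33, 5.58 and 5.36 in Axin2-/GFP- samples, and the populations overlapped (change 1.26, adjusted p = 0.0834). Hdc was called higher after quantile normalization (1.71, adjusted p = 0.0422), after cyclic loess (1.84, adjusted p = 0.0295), with the replicate block (adjusted p = 0.0180) and without Axin2+/GFP+ replicate 3 (1.78, adjusted p = 0.0107). Cyp11a1, the side-chain cleavage enzyme of steroid synthesis, had 4.26, 3.62 and 1.94 in Axin2+/GFP+ samples and 1.63, 1.57 and 2.03 in Axin2-/GFP- samples, so replicate 3 of the Axin2+/GFP+ samples lay among the Axin2-/GFP- values (change 1.53, adjusted p = 0.0719). Cd200r3, an activating receptor of basophils and mast cells, overlapped near background (change 0.55, adjusted p = 0.133). Itga2 went the other way, with 2.84, 2.82 and 2.65 in Axin2+/GFP+ samples and 3.26, 2.89 and 2.86 in Axin2-/GFP- samples. Its populations did not overlap, as for 17.8% of all genes in that direction, but it was not called (change -0.24, limma adjusted p = 0.370). Without Axin2+/GFP+ replicate 3 the number called was 4, and it was 0 without Axin2+/GFP+ replicate 1 or 2 or Axin2-/GFP- replicate 2 or 3.

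Within the Axin2+/GFP+ samples a set of basophil genes and the measured eosinophil genes differed in their order. This pattern was noticed after the values were seen and was not tested. Of 7 basophil genes (Mcpt8 and the 6 others), 6 had their highest Axin2+/GFP+ value in replicate 1, Cd200r3 being the exception with its highest in replicate 2, and 7 had their lowest in replicate 3. Over all genes 31.4% were highest in replicate 1 and 31.4% lowest in replicate 3. The basophil set leaves out the members that basophils share with other cells, and most of these had another order. Gata2 was highest in replicate 1 and lowest in replicate 3, and Cpa3 highest in replicate 1 but lowest in replicate 2. Ms4a2 and Fcer1a, both at background level, were highest in replicate 2 and lowest in replicate 1. Of 8 eosinophil genes (Prg2, Prg3, Epx and the 5 others), 4 were highest in replicate 3 (Epx, Siglecf, Ear6 and Alox15), 3 in replicate 2 (Prg2, Prg3 and Il5ra) and 1, Ccr3, in replicate 1, and 6 were lowest in replicate 1. Over all genes 34.0% were highest in replicate 3 and 38.1% lowest in replicate 1. The eosinophil genes thus shared no single order, and 2 of the 6 other basophil genes and 2 of the 5 other eosinophil genes lay under the receptor genes' 95th percentile in both populations. The mean log2 level of the 6 other basophil genes was 4.61, 4.25 and 3.42 in Axin2+/GFP+ replicates 1, 2 and 3, and that of the 5 other eosinophil genes was 3.35, 3.82 and 4.24 in the same samples.

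**Figure D3:**
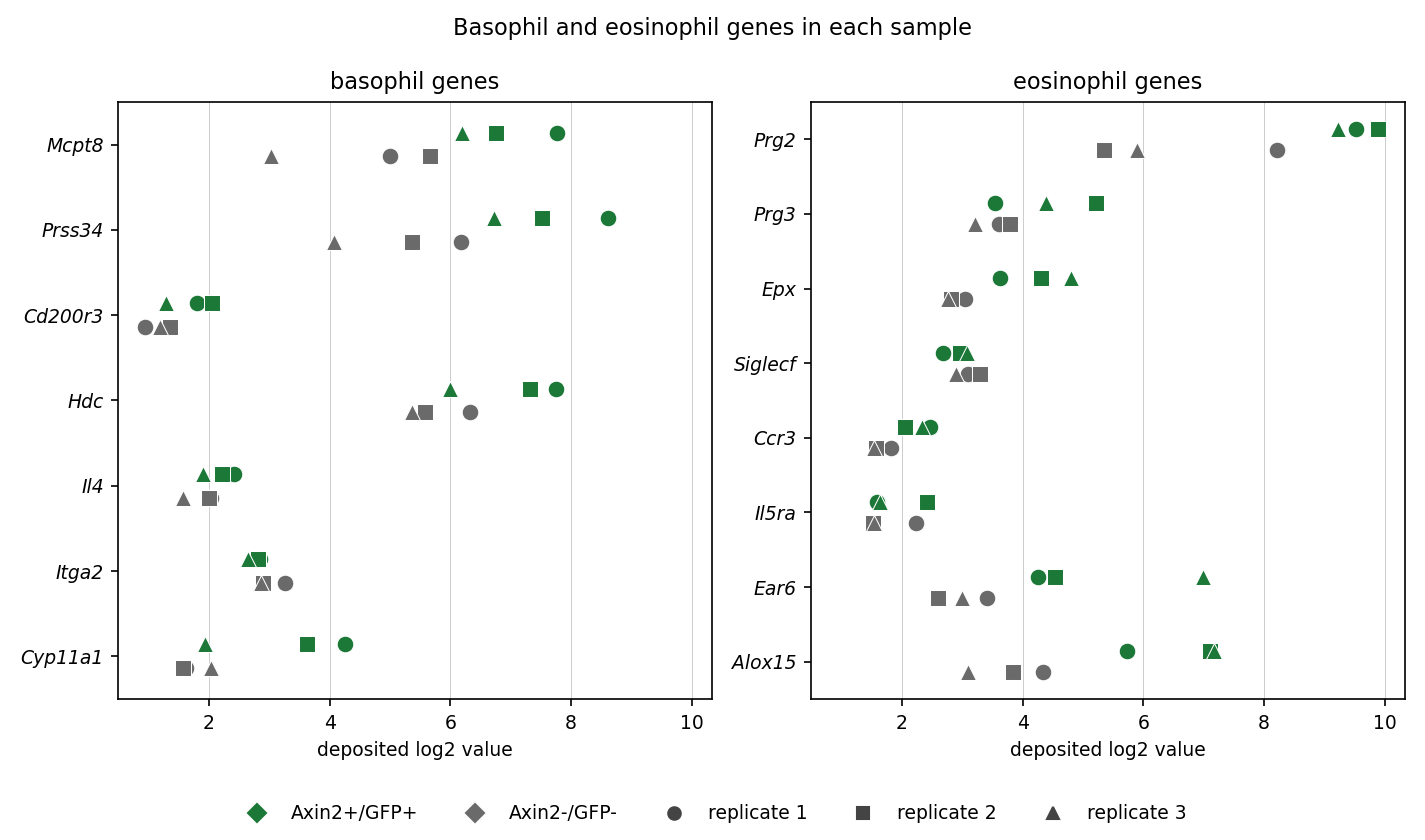
Deposited log2 value (horizontal axis) of 7 basophil genes (left, Mcpt8 and the 6 others) and the 8 measured eosinophil genes (right). Axin2+/GFP+ samples are green, Axin2-/GFP- samples are grey, and the marker shape gives the replicate number. Cpa3, Ms4a2, Fcer1a and Gata2 are not drawn. Among green symbols the circle of replicate 1 is the highest for 6 of the 7 basophil genes and the lowest for 6 of the 8 eosinophil genes.

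The 3 members shared by basophils and mast cells, Cpa3, Ms4a2 and Fcer1a, were not called. Cpa3, carboxypeptidase A3 of the granule, had values of 3.86, 2.85 and 3.14 in Axin2+/GFP+ samples and 2.86, 3.06 and 3.31 in Axin2-/GFP- samples, with replicate 1 of the Axin2+/GFP+ samples above all others and the remaining values mixed. Its change was 0.21 (SE 0.27, 95% interval -0.41 to 0.82, adjusted p = 0.597). Ms4a2, the beta chain of the IgE receptor, had 1.33, 2.01 and 1.87 in Axin2+/GFP+ samples and 2.05, 1.72 and 1.87 in Axin2-/GFP- samples (change -0.14, SE 0.22, 95% interval -0.64 to 0.35, adjusted p = 0.647). Fcer1a, the alpha chain that binds IgE, had 1.45, 1.76 and 1.59 in Axin2+/GFP+ samples and 1.27, 1.52 and 1.43 in Axin2-/GFP- samples (change 0.19, SE 0.17, 95% interval -0.20 to 0.59, adjusted p = 0.435). The populations overlapped for all 3 genes. In Axin2+/GFP+ samples 54.1% of receptor genes were as bright as Ms4a2 and 63.3% as bright as Fcer1a, against 24.0% and 54.3% in Axin2-/GFP- samples, so both chains were read at background level, and a difference was not detectable there.

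The gamma chain, Fcer1g, which the IgE receptor shares with Fc receptors of other myeloid cells, was well above background. It was added for its role after its values were seen, and it had 8.83, 8.54 and 7.86 in Axin2+/GFP+ samples and 8.04, 7.24 and 6.51 in Axin2-/GFP- samples, with an overlap (change 1.15, SE 0.39, adjusted p = 0.0770). A list of IgE receptor signalling genes held the gamma chain Fcer1g itself and genes downstream of the receptor. Of its 13 measured genes 0 were higher and 8 lower in Axin2+/GFP+ cells, with a median change of -0.997. The kinase Syk had 6.09, 4.94 and 5.38 in Axin2+/GFP+ samples and 7.02, 7.35 and 7.31 in Axin2-/GFP- samples (change -1.76, adjusted p = 0.00495). The phosphatase Inpp5d fell by 2.001, the kinase Btk by 1.55 and the phosphoinositide 3-kinase subunit Pik3cd by 1.42 on the log2 scale (adjusted p = 0.00127, 0.00423 and 0.00872). These 4 also act in B cells, and the mean log2 level of the 8 B-lineage markers ranged from 2.80 to 3.16 in Axin2+/GFP+ samples and from 7.37 to 7.78 in Axin2-/GFP- samples. Their part in the lower signalling genes was not tested. Fcer1g itself was called higher after quantile normalization (change 1.70, adjusted p = 0.0250), after cyclic loess (1.80, adjusted p = 0.0184), with the replicate block (adjusted p = 0.0119) and without Axin2-/GFP- replicate 1 (1.53, adjusted p = 0.0369), which made 1 signalling gene higher under each. The number called lower was 4 after quantile normalization, 0 by the methods' t-test with Benjamini-Hochberg adjustment and 6 to 9 when each sample was left out.

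Gata2, a zinc-finger transcription factor of basophil and mast cell precursors, was higher in every Axin2+/GFP+ sample. Its values were 5.11, 5.07 and 4.86 in Axin2+/GFP+ samples and 3.81, 4.10 and 3.68 in Axin2-/GFP- samples. The Axin2+/GFP+ samples lay within 0.25 of each other and the Axin2-/GFP- samples within 0.42, and the gap between the populations was 0.76. The mean was 5.01 ± 0.13 in Axin2+/GFP+ and 3.86 ± 0.21 in Axin2-/GFP- samples (SD, n = 3 each), a change of 1.15 (SE 0.18, 95% interval 0.74 to 1.57, adjusted p = 0.00438) or 2.22-fold. Gata2 was called higher in 18 of 18 alternative analyses, with changes from 0.83 to 1.49.

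Of 12 other regulators of these lineages, 2 were higher and 3 lower in Axin2+/GFP+ cells, with a median change of -0.05. Cebpe, which directs the late granule programme of eosinophils and neutrophils, had 4.89, 5.45 and 6.58 in Axin2+/GFP+ samples and 2.88, 2.93 and 3.37 in Axin2-/GFP- samples, with no overlap (change 2.58, SE 0.39, adjusted p = 0.00346). Cebpa, a myeloid factor, was the other higher gene (change 0.76, adjusted p = 0.0293) and was named to complete the count. Irf8, a monocyte and B-cell factor, fell by 2.05, the Gata cofactor Zfpm1 by 1.40 and Runx1, a broad blood factor, by 1.06 on the log2 scale (adjusted p = 0.00250, 0.00697 and 0.0231). Gata1, which eosinophils and mast cells need, had 3.16, 3.12 and 2.97 in Axin2+/GFP+ samples and 2.16, 2.92 and 2.59 in Axin2-/GFP- samples, and its change of 0.53 was not called (adjusted p = 0.128). The number called higher was 1 without any 1 sample other than Axin2+/GFP+ replicate 3, where it was 2, and Runx1 lost its call without any 1 sample other than Axin2+/GFP+ replicate 2 (adjusted p 0.0573 to 0.0877). Runx1 also lost it after quantile normalization (change -0.60, adjusted p = 0.177) and cyclic loess (-0.58, adjusted p = 0.184), and Zfpm1 after quantile normalization (-0.94, adjusted p = 0.0522). Both of these scalings called 4 of the 12 higher, with 1 lower after quantile normalization and 2 after cyclic loess.

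Gata2 is also used by other cells, whose markers gave these counts. Of 7 endothelial markers 0 were higher and 1, Pecam1, was lower in Axin2+/GFP+ cells, and of 9 erythroid and megakaryocyte markers 1, Klf1, was higher and 3, Pf4 among them, were lower, the call of Klf1 being lost without any 1 sample other than Axin2+/GFP+ replicate 3. Of 9 blood progenitor markers 0 were higher and 1 was lower (2 without Axin2+/GFP+ replicate 1). Under the receptor genes' 95th percentile in both populations lay 5 of the 7 endothelial markers, where a difference could go unseen. The same held for 3 of the 9 erythroid and megakaryocyte markers and 3 of the 9 progenitor markers. The mean log2 level of the progenitor markers ranged from 2.80 to 3.10 in Axin2+/GFP+ and from 3.2 to 3.4 in Axin2-/GFP- samples. Of 8 mesenchymal markers 3 were higher and 0 lower, with a median change of 0.82. The part of any of these cells in the values of Gata2 was not tested.

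Kit, the receptor of Kit ligand on mast cells, melanocytes and blood progenitors, had its lower values in Axin2+/GFP+ samples. Its values were 2.33, 2.97 and 3.16 in Axin2+/GFP+ samples and 3.52, 4.11 and 3.30 in Axin2-/GFP- samples. The populations did not overlap, but only 0.14 separated the highest Axin2+/GFP+ from the lowest Axin2-/GFP- sample. The change of -0.82 (SE 0.28, 95% interval -1.46 to -0.18, adjusted p = 0.0807) was not called. In Axin2+/GFP+ samples 7.14% of receptor genes were as bright as Kit, against 0.588% in Axin2-/GFP- samples. Centred on the receptor genes, whose own median was 0.30, Kit was lower by a called difference (change -1.14, adjusted p = 0.0212).

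Markers of other cells that use Kit were read beside it. Myb, a factor of blood progenitors and early B cells, had 4.58, 5.48 and 5.70 in Axin2+/GFP+ samples and 7.69, 8.05 and 8.22 in Axin2-/GFP- samples (change -2.73, SE 0.30, adjusted p = 0.000800). Cd34, a surface marker of progenitors, overlapped (change -0.91, adjusted p = 0.0935). None of 7 melanocyte markers was called in limma, though 3 had an unadjusted p under 0.05 and were higher, and 1 was called higher without Axin2+/GFP+ replicate 3. Of the 7 markers, 4 lay under the receptor genes' 95th percentile in both populations. Among these 4 were Tyr and Tyrp1, which had an unadjusted p under 0.05. Of 8 ligands that act on eosinophils, basophils and mast cells, Kit ligand included, 0 were called by limma, 1 reached an unadjusted p under 0.05 (higher), and 7 of the 8 had no level above the receptor genes' 95th percentile in either population. Of 7 other receptors for such ligands, Ccr3 was the only 1 called.

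Cma1, the chymase of connective-tissue mast cells, did not differ detectably. Its values were 2.73, 2.87 and 2.87 in Axin2+/GFP+ samples and 2.68, 3.01 and 2.85 in Axin2-/GFP- samples, all close to the receptor genes' 95th percentiles. The Axin2+/GFP+ values lay inside the Axin2-/GFP- range, and the change was -0.02 (SE 0.17, 95% interval -0.40 to 0.36, adjusted p = 0.934).

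Other mast cell genes were not called either. Of 11 measured, 0 were called higher or lower in limma, 2 reached an unadjusted p under 0.05 (both higher), the median change was 0.16, and 8 of the 11 lay under the receptor genes' 95th percentile in both populations. Without Axin2+/GFP+ replicate 3, with an intensity trend or with array weights, 1 of the 11, Tpsg1, was called higher (adjusted p = 0.0359, 0.0421 and 0.0482), and the methods' t-test put 3 past its own unadjusted threshold and 0 after Benjamini-Hochberg adjustment. The tryptase Tpsg1 had 2.51, 3.03 and 2.28 in Axin2+/GFP+ samples and 1.96, 1.95 and 1.72 in Axin2-/GFP- samples, with no overlap (change 0.73, adjusted p = 0.0553). As bright as Tpsg1 were 12.1% of receptor genes in Axin2+/GFP+ and 24.4% in Axin2-/GFP- samples. Its limma change was 0.62 after median centring (adjusted p = 0.0931) and 0.56 after quantile normalization (adjusted p = 0.173). It was 0.48 after cyclic loess (adjusted p = 0.206) and 0.41 after centring on receptor genes (adjusted p = 0.252). The chymase Mcpt4 had 3.51, 3.18 and 3.30 in Axin2+/GFP+ samples and 3.45, 3.60 and 4.27 in Axin2-/GFP- samples (change -0.44, adjusted p = 0.219). Mcpt1, a mucosal mast cell protease (change 0.51, adjusted p = 0.208), and Mrgprb2, a receptor for basic secretagogues (change 0.40, adjusted p = 0.129), were at background level. Absence of their RNA is not shown by values at background level.

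Mcpt8 and Cma1 belong to a run of 15 serine protease genes that ends with the granzymes, and this run was chosen after its values were seen. Of 13 genes measured, 2 were higher in Axin2+/GFP+ cells, 0 were lower and 11 were not called. The called genes were Mcpt8 and its neighbour Ctsg, cathepsin G of neutrophil granules, which had 5.13, 6.93 and 5.56 in Axin2+/GFP+ samples and 4.61, 4.16 and 3.41 in Axin2-/GFP- samples (change 1.82, SE 0.46, adjusted p = 0.0318). Cma1 lies 6 genes from Mcpt8. At the far end, the granzyme gene Gzmc had 4.25, 3.28 and 1.83 in Axin2+/GFP+ samples and 1.59, 1.31 and 1.68 in Axin2-/GFP- samples, with no overlap (change 1.59, adjusted p = 0.0644), and Gzmb overlapped (change 1.18, adjusted p = 0.105). The call of Ctsg was lost without Axin2-/GFP- replicate 2 (adjusted p = 0.0832) or 3 (adjusted p = 0.106), and that of Mcpt8 as given above.

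**Figure D4:**
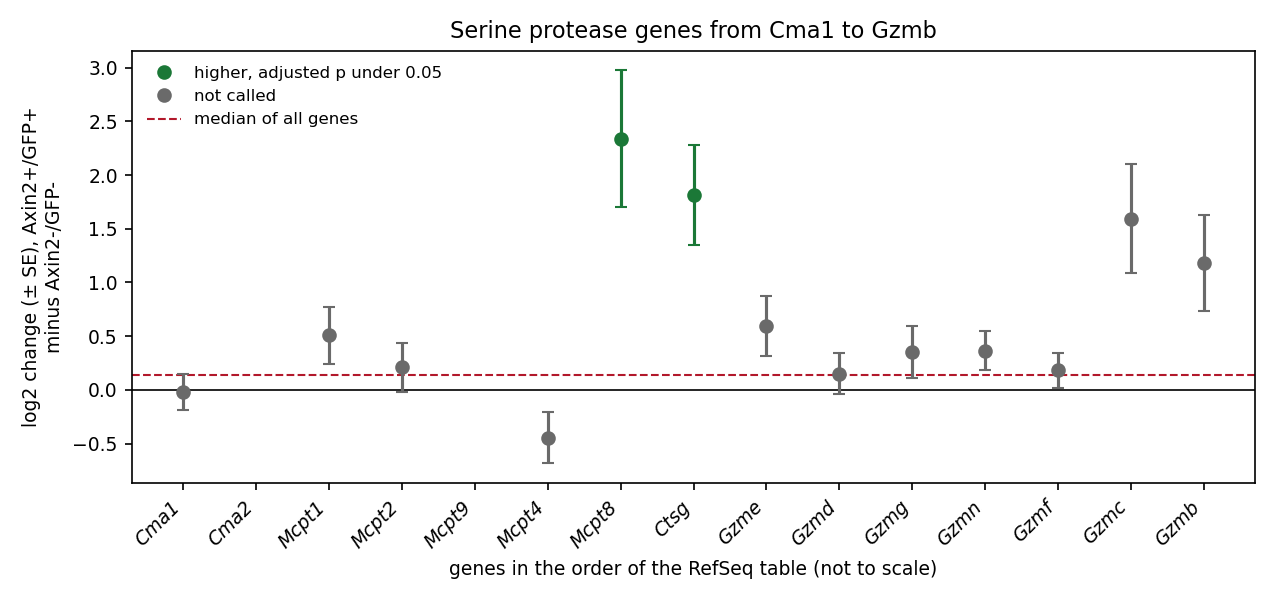
Log2 change with its SE (vertical axis) of the serine protease genes from Cma1 to Gzmb, in the order of the RefSeq table (horizontal axis), green where the adjusted p was under 0.05. Mcpt8 and Ctsg are the called genes, and Cma2 and Mcpt9 have no point because they were not analysed here.

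Most neutrophil genes differed between the populations in the same direction as the called members. Of 14 neutrophil and granulocyte precursor markers 13 were higher in Axin2+/GFP+ cells and 0 lower, with a median change of 2.17. Ltf, which encodes lactoferrin, had 10.01, 9.97 and 10.29 in Axin2+/GFP+ samples and 7.01, 5.52 and 4.84 in Axin2-/GFP- samples (change 4.30, adjusted p = 0.000784). Elane, neutrophil elastase, changed by 2.96, Mpo, myeloperoxidase, by 1.97 and the surface protein Cd177 by 2.26 (adjusted p = 0.00142, 0.00102 and 0.00165). The mean log2 level of the 14 markers was 8.62, 8.80 and 8.73 in Axin2+/GFP+ samples and 7.002, 5.972 and 5.403 in Axin2-/GFP- samples. Of the 14 markers 12 had their highest Axin2-/GFP- value in replicate 1 and 2, Mpo and Cd177, in replicate 2. Among the called members Prg2 and Epx were highest in Axin2-/GFP- replicate 1, and Mcpt8 and Gata2 in Axin2-/GFP- replicate 2. The part of neutrophils in the values of Prg2, Epx, Mcpt8 and Gata2 was not tested. When each sample was left out, 9 to 14 of the markers were called, and 1 was called by the methods' t-test with Benjamini-Hochberg adjustment.

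**Figure D5:**
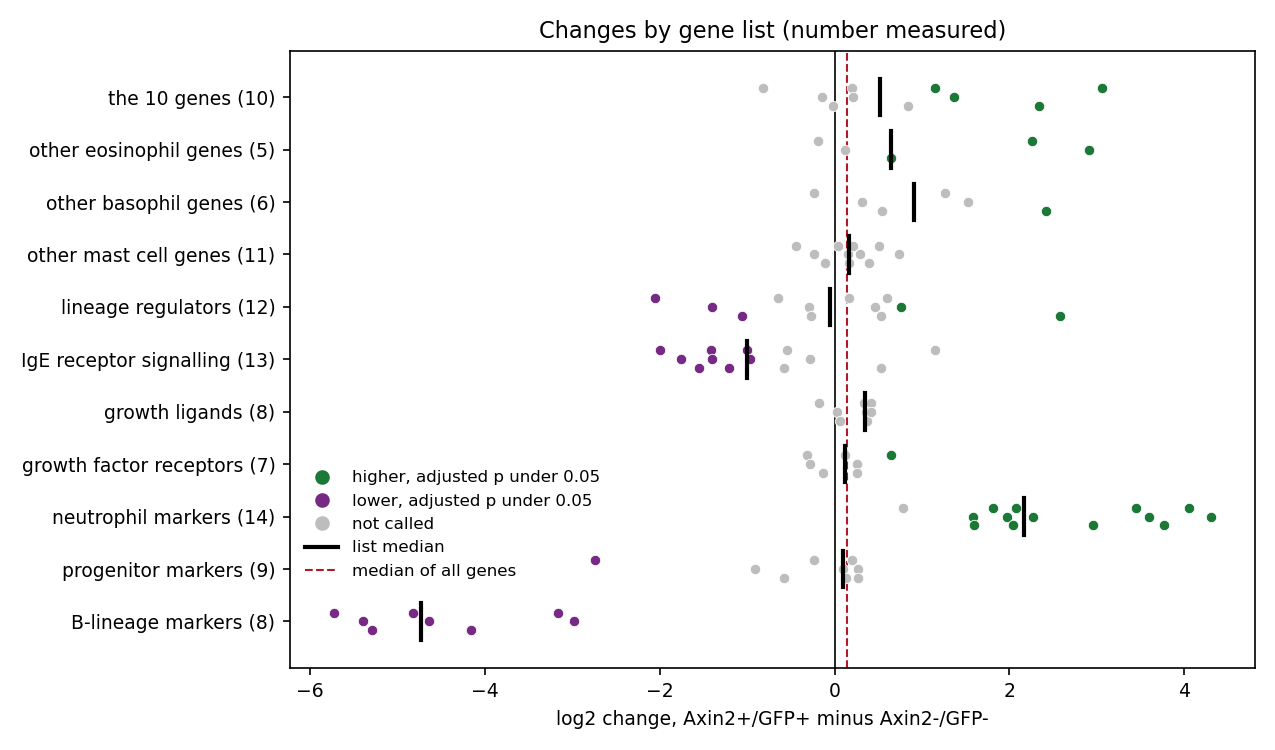
Log2 change (horizontal axis, Axin2+/GFP+ minus Axin2-/GFP-) of the 10 genes and of every measured gene in the lists drawn, 1 point per gene. Points are green where called higher, purple where called lower and grey where not called, with a black bar at each list's median. The erythroid and megakaryocyte, melanocyte, endothelial and mesenchymal lists are not drawn. The neutrophil markers lie to the right (13 of 14 called higher), the IgE signalling genes mostly to the left (8 of 13 called lower), and the mast cell genes around 0 (0 of 11 called).

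The genes most like 3 of the members were read among bright genes (a mean of at least 5 in 1 population, 2465 or 2466 genes) by Pearson's r over the 6 samples, as a description only, since the samples fall into 2 populations and all values come from the same arrays. For Prg2 they were Aspn (r = 0.993), Ptn (0.993), Aebp1 (0.988), Mcemp1 (0.981) and Ly6g (0.9801), and 32 genes had an r over 0.95. For Mcpt8 they were Sirpa (0.978), Nfix (0.971), Lyz2 (0.968), Prss34 (0.948) and Fosl2 (0.943). For Kit they were Syngr2 (0.982), Ewsr1 (0.976), Cers2 (0.973), Ankrd17 (0.972) and Rnps1 (0.968). Between members, r was 0.90 for Mcpt8 and Gata2, 0.80 for Prg2 and Epx, 0.72 for Prg2 and Mcpt8 and -0.92 for Cpa3 and Ms4a2.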

How the data were processed

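RNA of 3 Axin2+/GFP+ and 3 Axin2-/GFP- samples, which the labels call biological replicates, was labelled for Affymetrix whole-transcript arrays. The authors deposited log2 expression values for 35557 features, made with RMA in R 3.2.1 according to the submitters' processing notes. The log2 scale was taken from the range of the values. The upper quartile per sample was 3.72 to 3.76 in Axin2+/GFP+ and 3.97 to 4.00 in Axin2-/GFP- samples, so the columns do not share 1 distribution, and whether RMA was run on all 6 arrays together is not known. The probe set level and the annotation were not given in the sources used here. Because RMA summarises probes, the 3 samples per group and not a read depth limit the precision. All columns were matched to samples (0 unmatched). Of the features 21789 carry 1 symbol, 1621 several and 12147 none, and only the brightest feature of a gene with 1 symbol was read. The 10 members matched a RefSeq table (GRCm38.p6) by gene ID, 10 of 10.

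All 19938 genes were fitted together with limma 3.58.1 in R 4.3.3 (lmFit, eBayes) with Benjamini-Hochberg adjustment at 0.05, and the fit was tested on simulated data. The members and lists were chosen with earlier results of these data known. The text names every member, up to 4 genes of a list with the smallest p, and for Prg2, Mcpt8 and Kit the 5 genes most like them. Other genes were named after their values were seen: Fcer1g, Cebpa, Il5ra, Itga2, Gata1, Axin2, Ctsg, Gzmc and Gzmb. List genes without a feature of 1 symbol, Ear1, Ear2, Il1rl1, Lyn and Runx2 among them, were not analysed here. The alternatives were array weights, an intensity trend, the replicate block, the methods' t-test, 4 scalings, a filter on dim genes, the mean of a gene's features, a fit of every feature and leaving out each sample.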

Additional observations from a re-analysis of the deposited data

How the results depend on the processing

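The log2 changes of Prg2, Epx, Mcpt8, Gata2, Prg3 and Kit kept their direction in 18 of 18 alternatives. The number of the 10 genes called higher was 4 under every scaling, the trend and the replicate block, 3 with array weights or a fit of every feature, and 1 to 4 when each sample was left out, the 1 being Gata2 without Axin2-/GFP- replicate 3. The methods' t-test called 3 (Epx, Gata2 and Prg2) at its own threshold, unadjusted, and 1 (Gata2) after Benjamini-Hochberg. The deviations of same-numbered samples from their group means correlated at 0.0314, 0.0107 and 0.0530. Those of differently numbered samples correlated at -0.0505 to 0.0171. For each Axin2-/GFP- replicate, the same-numbered Axin2+/GFP+ sample gave the highest of its correlations. A correlation over all genes, many of them dim, cannot exclude that same-numbered samples are paired. The main fit left them unpaired. In the fit with the replicate block, Mcpt8 had an adjusted p of 0.00887 and Prg2 0.0109, no member changed its call, and over all genes 643 were higher and 2201 lower. Centring on receptor genes called 1 lower, Kit. Adjusted p ranged over the alternatives from 0.000712 to 0.131 for Prg2, 0.00359 to 0.110 for Epx, 0.00887 to 0.195 for Mcpt8 and 0.00233 to 0.0465 for Gata2.

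Changes near 0 turned sign. Centring on receptor genes gave -0.11 for Cpa3 and -0.12 for Fcer1a, which was -0.0185 after quantile normalization and -0.0486 after cyclic loess. With each sample left out, the change ranged from -0.0822 to 0.425 for Cpa3, from -0.280 to 0.0602 for Ms4a2 and from -0.103 to 0.0590 for Cma1. Over all genes, whose median change of 0.14 became 0.0107 after cyclic loess, 0.03 after median centring and -0.18 after centring on receptor genes, 926 higher and 2265 lower calls became 459 and 2719 after median centring, 210 and 3980 after centring on receptor genes, 513 and 2298 with the filter on dim genes, 335 and 1467 in the fit of every feature, 211 and 518 by the adjusted t-test, 2952 and 2747 unadjusted, 768 and 1266 after quantile normalization, and 785 and 1468 after cyclic loess. Without 1 sample they ranged from 239 to 852 and from 1376 to 2082. The causes were not tested.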
